A study of Mus musculus with 24 samples.

Results

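Bone marrow-derived macrophages (BMMs) that had been exposed to receptor activator of NF-κB ligand (RANKL) for 48 h were compared with BMMs taken at 0 h, before RANKL was added. Of the 24 mouse bead arrays of the time course, the 12 titled for these times were used for the comparison, 6 at 0 h and 6 at 48 h, and all genes detected on them were described. The marrow was from the long bones (tibia and femur) of C57BL/6 males at 5 weeks of age, and its floating cells were grown over 72 h in macrophage colony-stimulating factor (M-CSF) at 30 ng/ml. The 48 h group then received RANKL at 100 ng/ml with M-CSF still present at 30 ng/ml, whereas the 0 h group, labelled control, was taken before this step. The samples hold no culture given M-CSF without RANKL for the same 48 h, so RANKL and time in culture cannot be told apart. The labels do not say whether the 6 samples of a time were separate cultures or animals, so the p-values cover no more than the variation among these arrays, and that variation may be technical.

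RANKL is the cytokine that turns monocyte-macrophage precursors into osteoclasts, the multinucleated cells that dissolve bone. It binds the receptor RANK and activates NF-κB and AP-1 factors, which switch on NFATc1 and through it the genes for proteases, acid secretion and cell fusion. M-CSF acts on its receptor Csf1r and drives both the proliferation and the survival of these precursors.

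Between the 2 times 7175 of 9917 genes passed limma's test at an adjusted p under 0.05 (Benjamini-Hochberg over all genes tested), that is 72.4% of the genes, with 3285 higher at 48 h (33.1%) and 3890 lower (39.2%). Sizes were mostly modest. At 2-fold or more, 422 genes were higher (4.26%) and 405 lower (4.08%), and at 4-fold or more 55 were higher (0.555%) and 56 lower (0.565%). The 6 arrays at 48 h lay wholly above the 6 at 0 h for 24.4% of the genes and wholly below them for 29%, so that 53.3% of the genes did not overlap. For any such gene an exact two-sided permutation test gives p = 0.00216, the smallest that 6 against 6 arrays allow. All levels below are log2 signals after quantile normalization, on which a difference of 1 is a doubling, and genes called higher or lower passed the limma test. Since so many genes passed, the counts for each function are to be read against these shares.

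The arrays of a time correlated at 0.994 to 0.998 over the genes tested, and arrays of 0 h with those of 48 h at 0.942 to 0.951. The deposited signals had medians of 96.6 to 114 at 0 h and 94.1 to 122 at 48 h, and 15781 to 16539 and 15974 to 16779 of 45281 probes were detected. Replicate 4 at 48 h stood apart from its group. It was the far array (Dixon's test at the 95% level) for 581 genes, or 5.86% of those tested, against 38 to 101 genes for each other array at 48 h and 58 to 99 for each at 0 h, and its mean correlation with the other 48 h arrays was 0.995. With this array left out the numbers became 3279 higher and 3857 lower, with 412 and 398 at 2-fold or more.

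Markers of the labelled cell type were present at both times. Lyz2, which encodes lysozyme, lay near the top of the scale on all 12 arrays (medians 14.74 and 14.77), and Csf1r and Adgre1, which encodes the F4/80 antigen, were higher at 48 h by 1.72-fold and 1.73-fold. Genes of other cell types were detected too. Of 18 measured neutrophil genes, 16 were lower at 48 h, with a median log2 difference of -1.33 against -0.03 over all genes tested, and their summed linear signal ran from 66406 to 71923 at 0 h and from 28461 to 29886 at 48 h. Retnlg (4.38-fold) and Camp (4.2-fold), both carried by neutrophils, fell most, while Csf3r and Anxa1, which macrophages also express, were 2.96-fold and 1.55-fold higher. Of 7 erythroid and megakaryocyte genes 6 were lower, led by Pf4, which encodes platelet factor 4 (4.03-fold), and the α-globin gene Hba-a1 (at least 3.15-fold, since it was detected on 6 of 6 arrays at 0 h and on 0 of 6 at 48 h), and Epor did not pass (1.01-fold). Their sum ran from 9538 to 11319 at 0 h and from 3680 to 4355 at 48 h. In bulk samples fewer cells of a type and less RNA per cell cannot be told apart, and the cell that made a transcript is not known. Mast cell and basophil genes (0 higher and 4 lower of 5), eosinophil genes (0 and 1 of 2), B cell genes (1 and 1 of 4), T and NK cell genes (1 and 1 of 3), dendritic cell genes (3 and 1 of 6) and stromal, osteoblast and endothelial genes (3 and 2 of 6) were few on these arrays. The summed signal of B cell genes was higher at 48 h (1856 to 2033 at 0 h, 3127 to 3575 at 48 h). So were those of T and NK cell genes (418 to 478, then 660 to 750) and dendritic cell genes (997 to 1138, then 2210 to 2773). Those of mast cell and basophil genes and of eosinophil genes were lower, and those of stromal, osteoblast and endothelial genes overlapped. Such sums can follow 1 member. The 1 B cell gene higher was Blnk (log2 difference 1.09), and Cd79b was lower (-0.66). The 1 T and NK cell gene higher was Cd4 (at least 2.64-fold). Median log2 differences of the B cell, T and NK cell and dendritic cell genes were -0.02, 0.20 and 0.14. What part such cells play in the differences described here was not tested.

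**Figure D1:**
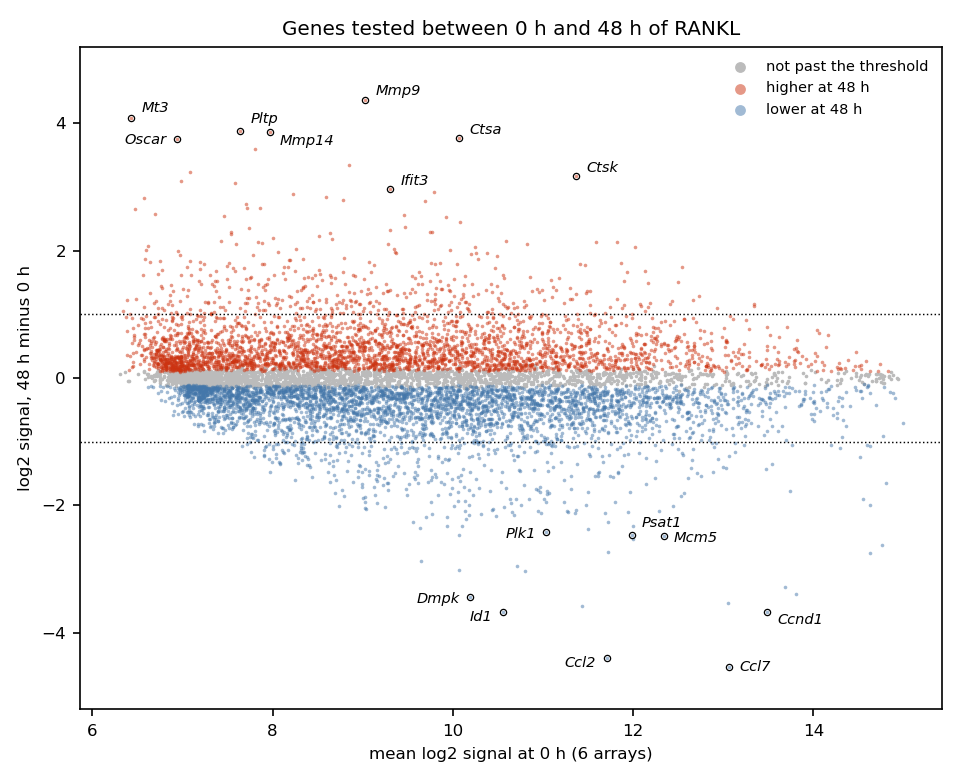
Each point is 1 of the 9917 genes tested, placed by its mean log2 signal over the 6 arrays at 0 h (x axis) and by its log2 signal at 48 h minus that at 0 h (y axis), with dotted lines at a 2-fold difference and red or blue for genes that passed as higher or lower. Mmp9 stands highest at 4.37 and Ccl7 lowest at -4.54.

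The largest rises included the genes of 2 matrix metalloproteases. Mmp9, a gelatinase that cleaves bone matrix, ran from 8.91 to 9.14 (median 9.02) on the 0 h arrays and from 13.29 to 13.54 (median 13.41) at 48 h, a rise of 20.7-fold. Mmp14, the membrane-bound collagenase, ran from 7.81 to 8.12 (median 7.97) at 0 h and from 11.78 to 11.93 (median 11.80) at 48 h, 14.5-fold higher. For both proteases the arrays of the 2 times were far apart. Mt3, which encodes a metallothionein that binds zinc and copper, was detected on 0 of 6 arrays at 0 h and on all 6 at 48 h, where it ran from 10.38 to 10.69 (median 10.43), at least 10.9-fold higher. Pltp, the phospholipid transfer protein, rose 14.7-fold from a median of 7.65 to 11.55. Oscar, a collagen-binding co-receptor of osteoclasts that signals through the adaptor Fcer1g, was detected on 1 of 6 arrays at 0 h (6.77 to 7.04, median 6.97) and reached 10.54 to 10.82 (median 10.70) at 48 h, 13.4-fold higher, or 12.4-fold where each array is set no lower than its lowest detected signal. The highest 0 h array of each of these genes lay below its lowest 48 h array. Ctsa, a lysosomal carboxypeptidase, was 13.7-fold higher by its brightest probe (medians 10.08 and 13.83). Its 4 other kept probes differed in direction, 2 being higher (log2 differences of 1.48 and 0.93) and 2 lower (both -0.40), so the size for this gene depends on the probe. The rest of the 12 largest rises began with Tmem176b (12.1-fold), a membrane protein gene of myeloid cells, and Clec7a (10.2-fold), the β-glucan receptor dectin-1. Fxyd2 (9.44-fold), a regulator of the sodium pump, Ctsk (8.98-fold), Scin (8.55-fold), which encodes the actin-severing protein scinderin, and the interferon-induced gene Ifit2 (8.34-fold) followed. Fxyd2 was detected on 3 and Scin on 2 of 6 arrays at 0 h. With each array set no lower than its lowest detected signal they rose 9.38-fold and 8.02-fold.

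Chemokine, inhibitor and histone genes led the falls. Ccl7 and Ccl2, both ligands that recruit monocytes through Ccr2, changed most of all genes. Ccl7 went from 12.94 to 13.22 (median 13.08) at 0 h to 8.47 to 8.61 (median 8.53) at 48 h, 23.2-fold lower. Ccl2 went from 11.41 to 11.93 (median 11.77) at 0 h to 7.21 to 7.44 (median 7.29) at 48 h, 21.2-fold lower, and was still detected on all 6 arrays. Id1, an inhibitor of basic helix-loop-helix factors, was 12.8-fold lower (medians 10.57 and 6.85) and was detected on only 1 of 6 arrays at 48 h, which leaves 11.4-fold with the floor at the lowest detected signal. Ccnd1, which encodes the G1 cyclin D1, was 12.7-fold lower, from 13.36 to 13.57 (median 13.49) at 0 h to 9.61 to 9.93 (median 9.86) at 48 h. In each of these the 48 h arrays lay below every 0 h array. Of the 12 largest falls 5 were in histone H2A genes, H2ac11 (12-fold), H2ac22 (11.6-fold), H2ac15 (10.5-fold), H2ac12 (9.77-fold) and H2ac21 (7.77-fold). These genes are near-identical copies whose probes may share transcripts, so the 5 may not be separate falls. Dmpk, a protein kinase gene, was at least 8.92-fold lower by a probe detected on 6 and then 0 arrays, whereas its second probe was not detected on any array of either time. Atg9b, an autophagy gene, was 8.13-fold lower, and Dnmt3l, a cofactor of DNA methyltransferases, 8.07-fold lower. Dnmt3l was detected on 4 of 6 arrays at 48 h, which leaves 8.01-fold with the same floor.

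Of the 9 genes taken as osteoclast markers, 7 were measured and 6 of these were higher at 48 h, with a median log2 difference of 1.99. Ctsk, the collagen-degrading protease cathepsin K, was already bright at 0 h (11.21 to 11.46, median 11.39) and rose to 14.38 to 14.61 (median 14.56). Acp5, the tartrate-resistant acid phosphatase by which osteoclasts are stained, was detected on 1 of 6 arrays at 0 h (6.85 to 7.04, median 6.97) and on 6 at 48 h (8.64 to 9.14, median 9.01), 3.98-fold higher, or 3.71-fold with each array set no lower than its lowest detected signal. Dcstamp, which is required for fusion of osteoclast precursors, was detected on 2 of 6 arrays at 0 h. It went from 6.81 to 7.09 (median 6.98) to 8.78 to 9.04 (median 8.92), 3.84-fold higher, or 3.61-fold with the same floor. Its relative Ocstamp was detected on 0 arrays at 0 h and on 6 at 48 h but only just above background (7.08 to 7.40, median 7.24, at least 1.13-fold higher). Itgb3, the β3 chain of the vitronectin receptor of mature osteoclasts, was detected on 4 of 6 arrays at each time, lay at a median of 7.06 at both, and did not pass (adjusted p = 0.846, limma). The probes of Calcr and Atp6v0d2 were not detected, and Prdm1, a repressor of the genes that oppose osteoclast differentiation, was likewise not measured. 

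**Figure D2:**
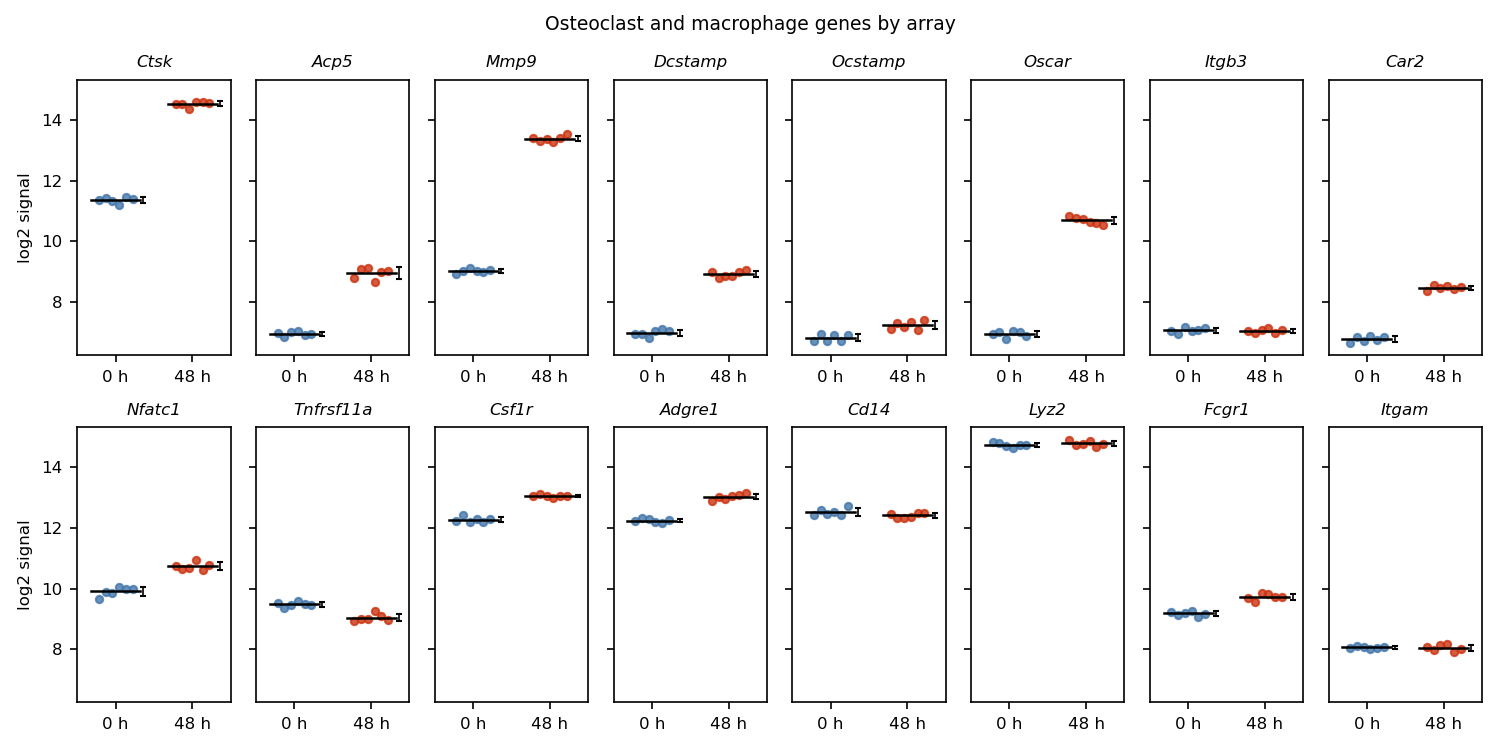
Log2 signal of osteoclast genes and of macrophage genes on each of the 6 arrays at 0 h (blue) and 48 h (red), with bars at the mean and whiskers of 1 SD. The means of Ctsk, Mmp9 and Oscar differ by more than 3 log2 units, whereas Itgb3, Lyz2 and Itgam overlap.

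Macrophage genes were for the most part as high or higher at 48 h. Of 27 measured genes of macrophage identity 16 were higher and 7 lower (median 0.44). Of the 6 measured markers of the labelled cell type, Csf1r, Adgre1 and Fcgr1 (1.46-fold), the high-affinity Fc receptor, were higher, Itgam (1.01-fold) did not pass, Lyz2 did not pass by its brightest probe but was higher by its 2 other kept probes (log2 differences of 0.45 and 0.85), and Cd14, a co-receptor for lipopolysaccharide, was 1.08-fold lower with overlapping arrays (adjusted p = 0.0439, limma). Csf1r ran from 12.19 to 12.42 (median 12.26) at 0 h and from 12.99 to 13.12 (median 13.05) at 48 h, without overlap. Mertk, a receptor for the uptake of dying cells, rose 3.88-fold (medians 9.40 and 11.31), second in this group only to Clec7a. The scavenger receptors Cd163 and Cd36 were at least 1.11-fold and 1.13-fold lower and were detected on 0 arrays at 48 h, although the arrays of the 2 times overlapped for Cd36.

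Resorption genes stood out among the functions tied to the osteoclast. Of 17 measured genes for resorption enzymes and adhesion, 12 were higher, 0 lower and 5 did not pass (median 0.83), and 8 were 2-fold or more higher. Beside Mmp9, Mmp14, Ctsk, Oscar and Acp5 they include Car2 (chosen after its values were seen), the carbonic anhydrase that supplies protons for acid secretion, which was detected on 0 arrays at 0 h and ran from 8.34 to 8.54 (median 8.48) at 48 h, at least 2.66-fold higher. Src, the kinase needed to form the ruffled border, was 3.92-fold higher (medians 8.09 and 10.05). Ckb, the brain-type creatine kinase, had medians of 14.75 and 14.81 and did not pass, near the top of the scale (highest value 15.06). Among 100 genes with mean levels over 14 at both times, only 4 differed by 1.5-fold or more.

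Fusion genes, by contrast, were mixed. Of 11 measured, 7 were higher, 2 lower and 2 did not pass (median 0.25). After Dcstamp the largest rise was in Rufy4 (2.59-fold, medians 7.06 and 8.43), which encodes an adaptor of Rab7 on lysosomes. Rufy4 was detected on 3 of 6 arrays at 0 h, which leaves 2.57-fold with the floor at the lowest detected signal. Among the tetraspanins Cd81 was 1.6-fold lower and Cd9 did not pass (1.05-fold), and Adam8, a membrane protease, was 1.18-fold lower (adjusted p = 1.79e-05, limma).

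Lysosomal hydrolase genes were for the most part higher, by small steps. Of 35 hydrolase genes 26 were higher, 3 lower and 6 did not pass (median 0.47), and 5 were 2-fold or more higher. After Ctsa came Ctsf, the cysteine protease cathepsin F, at 2.87-fold (7.18 to 7.57 at 0 h and 8.76 to 8.99 at 48 h). The glycosidases Fuca1 (1.14-fold, adjusted p = 0.0149, limma) and Neu1 (1.13-fold, adjusted p = 0.000842, limma) were slightly lower with overlapping arrays, and Psap, the saposin precursor, lay at 14.77 and 14.79. Of 29 genes of autophagy and lysosome biogenesis 18 were higher and 5 lower (median 0.26), or 14 higher and 9 lower (median 0.08) with 75th percentile scaling. Gabarapl1, which coats autophagosomes, was 2.16-fold higher and Fnip1, a partner of folliculin, 2.00-fold, whereas Rab27a, which tethers secretory lysosomes, was 1.81-fold lower and Atg9a 1.32-fold lower. The membrane protein gene Lamp1 did not pass (14.84 and 14.87).

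The vacuolar ATPase, which pumps protons into the resorption space, had 10 of 16 measured subunits higher and 2 lower with a median of 0.20, but 6 higher and 3 lower with median scaling of the arrays, and 6 higher and 4 lower with 75th percentile scaling, under which the median was -0.00. The largest differences were in Atp6v1c1 (1.59-fold higher, medians 12.52 and 13.13) and Atp6v1d (1.53-fold higher), both of the catalytic sector, while the membrane sector genes Atp6v0a2 (1.27-fold, its second probe not past the threshold) and Atp6v0b (1.10-fold, adjusted p = 0.00338, limma) were lower. Atp6v0e did not pass (14.26 and 14.21).

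To show what lies before the starts of such genes, motif letters were searched on both strands in the RefSeq windows of build GRCm38.p6, from 250 bases before to 50 after each start. Of the 9917 genes tested 8075 had a window, and a gene counted once if any of its windows held the letters. TCACGTGA, the core of the element bound by the lysosomal regulator TFEB, was found for 3 of 11 vacuolar ATPase genes with a window (27.3%). It was found for 3 of 30 such hydrolase genes (10.0%), against 2.4% of the genes tested and 1.1% of 27025 genes with a window. It was in 1.5% of the genes that were 2-fold or more higher. Ctsa, the list member with the largest difference among those that hold it, carries it at 2 places, shown in capitals. The window printed (chr2:164833523-164833822, plus strand) is 1 of 2 for this gene.
Ctsa: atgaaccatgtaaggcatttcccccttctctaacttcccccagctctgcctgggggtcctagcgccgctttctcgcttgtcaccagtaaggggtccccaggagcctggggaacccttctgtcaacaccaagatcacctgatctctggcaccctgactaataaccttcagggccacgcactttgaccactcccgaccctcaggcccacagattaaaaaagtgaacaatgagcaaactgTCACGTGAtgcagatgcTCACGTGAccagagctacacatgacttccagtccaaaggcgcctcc

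Signalling and transcription factors of the RANKL response moved both ways, 16 of 32 higher and 12 lower (median 0.14). Nfatc1, the master factor of osteoclast differentiation, ran from 9.66 to 10.06 (median 9.94) at 0 h and from 10.63 to 10.96 (median 10.73) at 48 h, 1.78-fold higher. Tnfrsf11a, which encodes RANK itself, went the other way, from 9.36 to 9.60 (median 9.48) to 8.93 to 9.25 (median 8.99), 1.36-fold lower, and its mean at 24 h was 10.41. The AP-1 factor Fosl2 (2.52-fold) and Relb (2.14-fold), of the alternative NF-κB pathway, showed the largest rises, and Id1 and Id3 (3.16-fold) the largest falls. Fcer1g, the adaptor through which Oscar signals, was at 14.88 and 14.94 and did not pass. Among 8 measured repressors of osteoclast differentiation 6 were lower, 1 higher and 1 not past the threshold (median -0.38), and 2 were 2-fold or more lower. Id1 is on both lists and had the largest fall in each. Bcl6 fell 1.36-fold (medians 11.04 and 10.56), Irf8, which restrains osteoclast formation, was 1.34-fold higher (10.21 and 10.64), and Zbtb7a did not pass by its brightest probe (1.07-fold).

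Interferon-induced genes rose almost throughout. Of 30 measured, 29 were higher, 0 lower and 17 were 2-fold or more higher (median 1.18). Ifit2 and Ifit3, which bind viral RNA, led them. Ifit3 ran from 9.14 to 9.38 (median 9.34) at 0 h and from 12.23 to 12.38 (median 12.26) at 48 h, 7.83-fold higher, and Ifit2 from 7.39 to 7.73 (median 7.60) to 10.51 to 10.88 (median 10.60). Neither gene had an array in common between the times. The exception, the GTPase gene Irgm1, did not pass by its brightest probe (1.08-fold lower), yet its 2 other kept probes were both higher, by 1.83 and 0.77 on the log2 scale. The median of the group was 1.37 above 0 h at 24 h and 0.39 at 72 h. GAAANNGAA spells the core of the interferon-stimulated response element, with N for any base. It was found for 14 of 22 genes of the group with a window (63.6%) and for 8.6% of the genes tested. Of the genes 2-fold or more higher 18.3% held it, and of those 2-fold or more lower 7.8%. The window of Ifit3 (chr19:34583279-34583578, plus strand) is shown because it holds 3 such runs, in capitals on the opposite strand.
Ifit3: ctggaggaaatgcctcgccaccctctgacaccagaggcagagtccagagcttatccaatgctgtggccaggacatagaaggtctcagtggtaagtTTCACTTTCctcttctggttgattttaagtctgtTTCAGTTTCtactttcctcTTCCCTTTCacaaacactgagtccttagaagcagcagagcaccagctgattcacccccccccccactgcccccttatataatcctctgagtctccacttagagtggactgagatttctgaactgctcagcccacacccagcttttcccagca

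Antigen presentation rose as well. All 10 measured genes of MHC class II presentation were higher, without overlap between the times (median 1.02), and 6 were 2-fold or more higher. Cd74, the invariant chain, was 2.43-fold higher (12.62 to 12.88 at 0 h and 13.93 to 14.10 at 48 h) and Ciita, the transactivator of the class II genes, 2.28-fold (7.21 to 7.48 and 8.46 to 8.61). Their median was 0.62 below 0 h at 24 h. Of 14 class I and peptide loading genes 12 were higher (median 0.71), led by Tapbp (3.63-fold), the tapasin gene, and H2-T23 (3.51-fold), a nonclassical class I gene, with B2m at 14.50 and 14.57 and not past the threshold.

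Most complement and Fc receptor genes were higher. Of 13 complement genes 9 were higher and 0 lower (median 0.71). C1qa, a chain of C1q, ran from 9.92 to 10.01 (median 9.98) at 0 h and from 11.84 to 12.09 (median 12.01) at 48 h, 4.03-fold higher. C2 appeared from 0 arrays detected to 6 (at least 1.92-fold higher), and Cfp, the properdin gene, did not pass (1.04-fold). Of 11 genes listed for the phagocyte NADPH oxidase and Fc receptors 8 were higher and 0 lower (median 0.55), with Fcgr2b, the inhibitory Fc receptor, at 3.78-fold. Ptprc, the phosphatase CD45, belongs to neither but was counted on this list, and was 2.27-fold higher. Toll-like receptors and adaptors had 13 of 21 higher and 3 lower (median 0.31), or 11 higher and 6 lower (median 0.17) with 75th percentile scaling. Tlr8 (3.63-fold, medians 8.21 and 9.98) and Tlr1 (2.59-fold) led, Tlr5, the flagellin receptor, was at least 1.06-fold lower with 0 arrays detected at 48 h, Tirap was 1.10-fold lower (adjusted p = 0.0056, limma), and the adaptor gene Myd88 did not pass (12.56 and 12.51).

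Genes of cytokines, inflammasomes and chemokines changed in both directions. Of 14 cytokine and inflammasome genes 5 were higher and 6 lower (median -0.10). That is 35.7% and 42.9%, close to the 33.1% and 39.2% of all genes tested. Casp4, a noncanonical inflammasome caspase, was 2.57-fold higher and Il1a 2.04-fold (detected on 1 array at 0 h, and 1.8-fold with the floor at the lowest detected signal), while Tnf, from 9.48 to 9.68 (median 9.54) at 0 h to 8.25 to 8.82 (median 8.43) at 48 h, was 2.11-fold lower and Il1b 2.08-fold lower. Casp1 did not pass (1.08-fold). Of 18 chemokine and chemokine receptor genes 8 were higher and 6 lower (median -0.01), or 7 higher and 9 lower with 75th percentile scaling, and 10 of the 18 differed by 2-fold or more, 7 upward and 3 downward. Cxcl16, a membrane-bound chemokine, went from a median of 9.45 to 12.04 (5.92-fold higher) and Ccl5 from 7.90 to 10.04 (4.35-fold higher), against the falls of Ccl2 and Ccl7. Ccl3 did not pass (12.78 and 12.70). Among 16 coupling factors and secreted signals 11 were higher and 1 lower (median 0.22), or 7 higher with median scaling. Cxcl16 is on this list too and had its largest rise. Sema4d, a semaphorin through which osteoclasts restrain osteoblasts, was 2.99-fold higher and Tgfb1 1.3-fold lower with overlapping arrays (adjusted p = 4.06e-06, limma), and Gpnmb did not pass by its brightest probe (14.66 and 14.68), although 2 of its 3 other kept probes were higher, by 0.79 and 0.30 on the log2 scale.

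**Figure D3:**
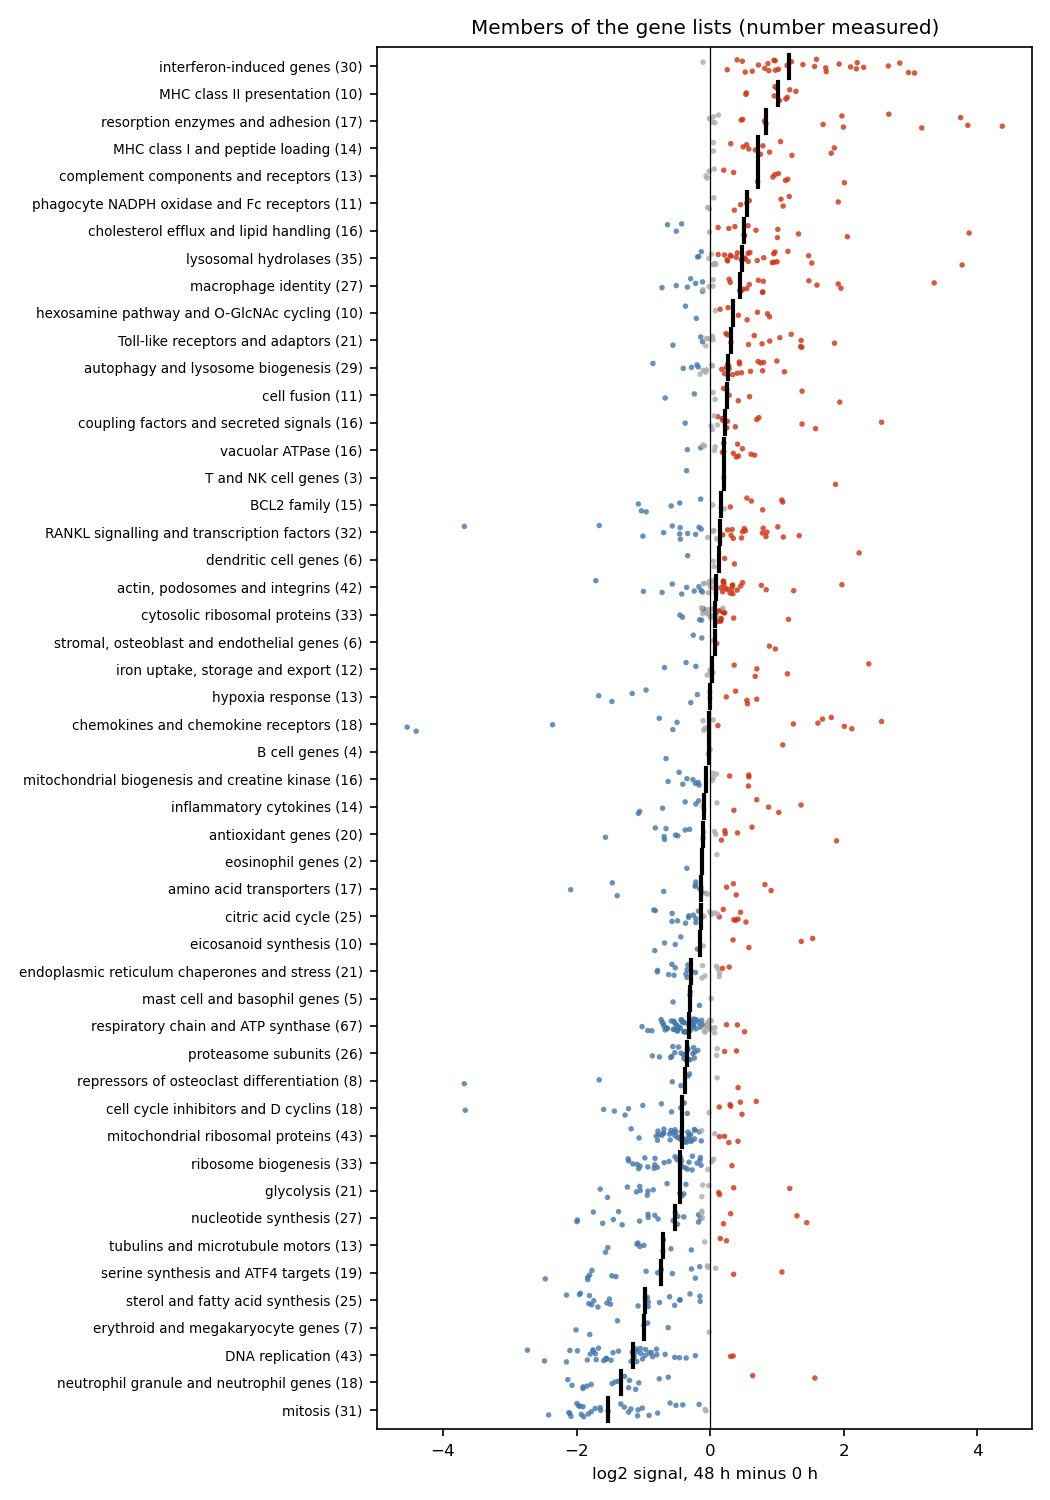
Log2 signal at 48 h minus 0 h (x axis) for each measured member of the gene lists, with the number measured in brackets, red for members higher, blue for lower, grey for those not past the threshold, and a black bar at the list's median. Medians run from -1.53 for mitosis to 1.18 for interferon-induced genes, against -0.03 over all genes tested.

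Genes of cell division were lower almost throughout. Of 43 measured DNA replication genes 41 were lower and 2 higher (median -1.15), with 29 of them 2-fold or more lower, and of 31 mitosis genes 29 were lower and 0 higher (median -1.53), with 23 at 2-fold or more. Uhrf1, which copies DNA methylation at the replication fork, ran from 11.56 to 11.85 (median 11.75) at 0 h and from 8.88 to 9.05 (median 9) at 48 h, 6.67-fold lower. Mcm5, a subunit of the replicative helicase, went from 12.29 to 12.37 (median 12.34) to 9.73 to 9.97 (median 9.87), 5.59-fold lower. Plk1, the kinase that drives entry into and passage through mitosis, went from 10.84 to 11.23 (median 11.06) to 8.54 to 8.72 (median 8.61), 5.35-fold lower, and Cdca8, a subunit of the chromosomal passenger complex, was 4.33-fold lower. No 48 h array of these 4 genes reached any 0 h array. Rfc2 (1.27-fold) and Rfc1 (1.24-fold, adjusted p = 2.52e-05, limma), of the clamp loader, were the genes that were higher, and Spc24, a kinetochore gene, did not pass by its brightest probe (1.04-fold), while its other kept probe was lower (log2 difference -0.88).

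The other times, for which no test is given here, showed another order. The median of the mitosis genes was 0.81 above 0 h at 24 h, 1.53 below it at 48 h and 1.92 below it at 72 h, and that of the replication genes was 0.72 above, then 1.15 and 1.35 below. Mcm5, for example, had mean levels of 12.34, 13.38, 9.86 and 9.36 at 0, 24, 48 and 72 h, and Plk1 had 11.04, 12.11, 8.62 and 7.18.

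**Figure D4:**
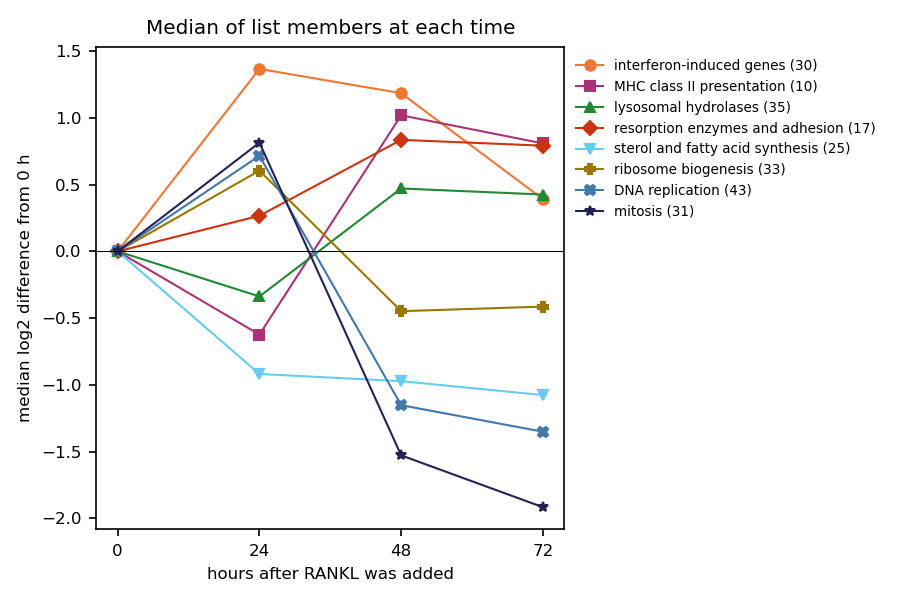
Median log2 difference from 0 h (y axis) of the measured members of 8 gene lists at 0, 24, 48 and 72 h after RANKL was added (x axis). Replication, mitosis and ribosome biogenesis lie above 0 at 24 h and below it at 48 h, and MHC class II and lysosomal hydrolases do the reverse.

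Both groups were searched for the letters of elements known from cell cycle promoters. TTTGAA, the core of the CHR element that recruits the DREAM complex, was found for 20 of 25 mitosis genes with a window (80.0%). CCAAT was found for 18 of these 25 (72.0%). The shares were 14.5% and 43% of the genes tested and 26.1% and 55.9% of the genes 2-fold or more lower. TTTGGCGC, the form of the E2F site searched first, was found for 5 of 35 replication genes with a window (14.3%). The second form TTTCCCGC was found for 6 of these 35 (17.1%). These forms were found for 1.1% and 2.3% of the genes tested and 2.7% and 4.5% of those 2-fold or more lower. The windows of the members with the largest differences that hold these letters are Mcm5 (chr8:75109259-75109558, plus strand), with the E2F letters in capitals, and Plk1 (chr7:122159185-122159484, plus strand) and Cdca8 (chr4:124936868-124937167, minus strand), with CCAAT and TTTGAA in capitals on either strand. In Cdca8 the CHR letters and a CCAAT box share a base.
Mcm5: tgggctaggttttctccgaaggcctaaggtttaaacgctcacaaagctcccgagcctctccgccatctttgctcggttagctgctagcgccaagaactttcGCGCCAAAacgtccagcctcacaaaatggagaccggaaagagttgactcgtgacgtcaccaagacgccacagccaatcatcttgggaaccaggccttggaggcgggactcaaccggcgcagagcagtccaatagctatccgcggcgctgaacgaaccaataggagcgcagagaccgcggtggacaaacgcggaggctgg
Plk1: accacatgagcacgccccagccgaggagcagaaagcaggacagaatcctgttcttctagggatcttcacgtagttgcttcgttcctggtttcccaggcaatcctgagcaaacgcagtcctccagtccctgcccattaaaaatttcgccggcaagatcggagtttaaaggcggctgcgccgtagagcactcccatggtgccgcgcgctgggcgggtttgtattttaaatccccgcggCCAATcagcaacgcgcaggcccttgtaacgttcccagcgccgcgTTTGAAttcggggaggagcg
Cdca8: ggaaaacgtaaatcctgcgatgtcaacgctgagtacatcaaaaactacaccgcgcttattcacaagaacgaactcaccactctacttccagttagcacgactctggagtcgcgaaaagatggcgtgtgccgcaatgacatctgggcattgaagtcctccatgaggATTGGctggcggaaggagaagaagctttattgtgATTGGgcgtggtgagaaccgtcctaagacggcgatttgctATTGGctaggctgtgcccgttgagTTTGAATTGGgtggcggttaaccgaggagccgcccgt

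**Figure D5:**
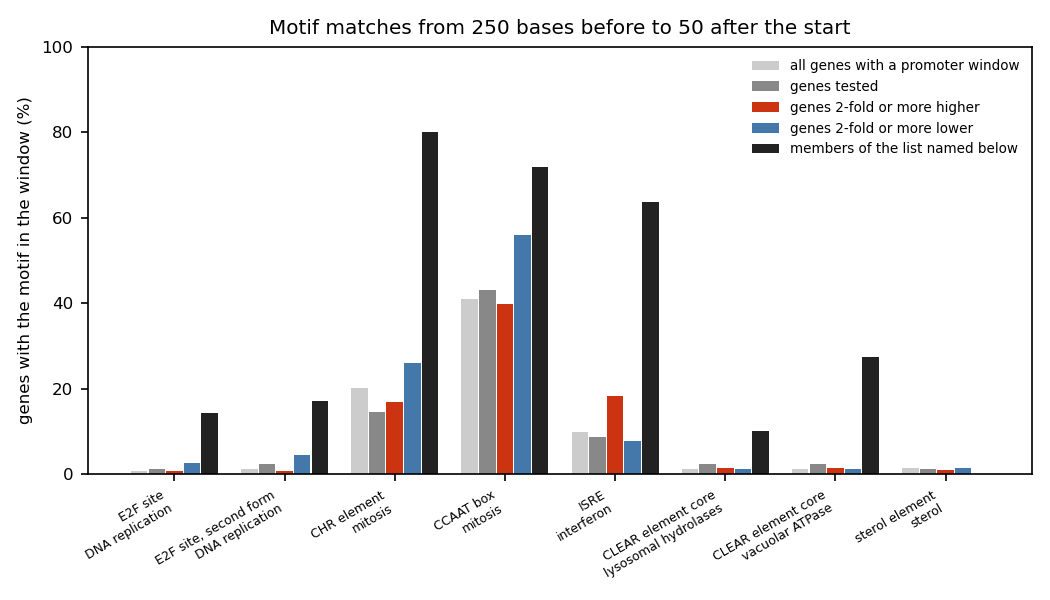
Share of genes whose window from 250 bases before to 50 after the start holds each motif (y axis, percent), for all genes with a window, the genes tested, those 2-fold or more higher or lower, and the list named under each motif. The bars of mitosis genes reach 80.0% and 72.0%, and no window of the sterol list holds the sterol element.

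Regulators of the G1 phase were mixed, with more of them lower. Of 18 cell cycle inhibitors and D cyclins 11 were lower and 6 higher (median -0.42). Beside Ccnd1, Ccnd2 was at least 2.33-fold lower (detected on 6 and then 0 arrays). The antiproliferative gene Btg1 was 1.61-fold higher, and Cdkn1c, the CDK inhibitor p57, went from a median of 11.83 to 12.31 (1.39-fold higher), while Cdkn2b did not pass (1.01-fold). Histone genes divided by type. Of 14 measured H2A genes of the clusters 12 were lower and 1 higher (median -2.31), of 9 H3 genes 8 were lower (median -0.44) and of 11 H4 genes 10 were lower (median -0.40), whereas of 11 H2B genes 9 were higher and 1 lower (median 0.40), or 7 higher and 2 lower with median scaling. The genes of each type are near-identical copies, so their probes may share transcripts and the values of single histone genes are uncertain. The histone families were described after their values were seen.

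Biosynthesis for growth was lower in most of its branches. Of 27 nucleotide synthesis genes 20 were lower and 4 higher (median -0.52). Uck2, a uridine-cytidine kinase, went from a median of 11.52 to 9.47 (3.99-fold lower) and Tyms, thymidylate synthase, from 10.75 to 8.72 (3.97-fold lower), whereas Ctps2 (2.72-fold by its brightest probe, with the second not past the threshold) and Adss (2.46-fold) were higher and Hprt did not pass (1.09-fold). Ribosome biogenesis had 29 of 33 lower and 1 higher (median -0.45), led by Grwd1 (2.34-fold) and Polr1a (2.33-fold), the large subunit of RNA polymerase I, with Pes1 1.25-fold higher and Npm1 not past the threshold (13.34 and 13.26). Cytosolic ribosomal protein genes were 13 higher and 5 lower of 33 (median 0.07), but 2 higher and 10 lower with median scaling, so no direction is given for them. Rpl22 stood out at 2.25-fold higher (8.98 to 9.27 at 0 h and 10.27 to 10.42 at 48 h), followed by Rpl27 (1.28-fold), and Rplp0 (1.37-fold) and Rpl30 (1.33-fold, its second probe not past the threshold) were lower, with Rplp1 at 14.93 and 14.94. Tubulins and microtubule motors had 10 of 13 lower (median -0.71), with Tuba1a 2.96-fold and Tubb4b 2.89-fold lower. The motor gene Dync1h1 was 1.18-fold higher (adjusted p = 2.3e-05, limma) and Mapre1, a protein of growing microtubule ends, 1.11-fold (adjusted p = 0.0142, limma), but with median scaling 0 genes of the group were higher, Dync1h1 did not pass and the sign of Mapre1 turned. Kif3c did not pass (1.06-fold).

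Most genes of the mitochondrial ribosome and the respiratory chain were lower, few of them by 2-fold. Of 43 mitochondrial ribosomal protein genes 37 were lower and 4 higher (median -0.43), from Mrps28 (2.27-fold lower, medians 11.13 and 9.90) and Mrpl20 (2.09-fold lower) to Mrpl9 (1.33-fold higher) and Mrpl1 (1.21-fold higher, adjusted p = 4.28e-05, limma), with Mrps21 not past the threshold. Of 67 genes of the respiratory chain and ATP synthase 51 were lower and 3 higher (median -0.32). Ndufs8, an iron-sulfur subunit of complex I, ran from 13.05 to 13.21 at 0 h and from 12.05 to 12.26 at 48 h, 2.03-fold lower, and it was the single gene of this group at 2-fold or more. Ndufa12 was 1.91-fold lower, Ndufa6 was 1.43-fold higher with overlapping arrays, Uqcrc2 was 1.33-fold higher, and Cox4i1 did not pass (14.26 at both times). Citric acid cycle genes were 7 higher and 12 lower of 25 (28% and 48%, median -0.13). Mitochondrial biogenesis genes were 4 higher and 8 lower of 16 (25% and 50%, median -0.07). Over all genes tested the shares were 33.1% and 39.2%.

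Lipid synthesis and lipid export differed in direction. All 25 measured genes of sterol and fatty acid synthesis were lower (median -0.97), 12 of them by 2-fold or more, and 22 without overlap between the times. Scd2, a stearoyl-CoA desaturase, ran from 9.73 to 10.43 (median 10.22) at 0 h and from 7.80 to 8.27 (median 8.04) at 48 h, 4.44-fold lower, and Elovl6, a fatty acid elongase, from 8.97 to 9.31 (median 9.16) to 7.06 to 7.34 (median 7.20), 3.89-fold lower. Their median had already been 0.92 below 0 h at 24 h. TCACNCCAC, a form of the sterol element, was found for 0 of the 20 members with a window and for 1.3% of the genes tested. Of 16 genes of cholesterol efflux and lipid handling 12 were higher and 3 lower (median 0.51). Apoe, the apolipoprotein that carries cholesterol from macrophages, was 4.15-fold higher (11.81 to 12.15 at 0 h and 13.91 to 14.21 at 48 h), next to Pltp. Ch25h, cholesterol 25-hydroxylase, was at least 1.34-fold lower with 0 arrays detected at 48 h, and Lpl did not pass (14.71 and 14.67).

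Genes of serine synthesis, ATF4 targets and glycolysis were lower for the most part. Of 19 genes of serine synthesis and ATF4 targets 14 were lower and 2 higher (median -0.73). Psat1, a transaminase of serine synthesis, ran from 11.85 to 12.09 (median 11.98) at 0 h and from 9.43 to 9.60 (median 9.51) at 48 h, 5.54-fold lower, and Shmt2, which passes the serine carbon to folate, was 3.57-fold lower. Ddit3, a stress factor, was 2.11-fold higher and Atf3 1.28-fold higher, with Cebpg not past the threshold (1.06-fold). Amino acid transporters were 5 higher and 9 lower of 17 (median -0.13), or 5 higher and 6 lower with the authors' processed values. The first counts are 29.4% and 52.9%, against 33.1% and 39.2% of all genes tested. Slc7a8 was 4.25-fold and the glycine transporter Slc6a9 2.76-fold lower. Slc7a7 was 1.88-fold and the lysosomal Slc38a9 1.77-fold higher, the latter with 1 of its 2 other kept probes higher and 1 lower. Slc38a1 did not pass (1.10-fold). Of 21 glycolysis genes 14 were lower and 4 higher (median -0.45). The glucose transporter gene Slc2a1 went from a median of 11.60 to 10.07 (2.90-fold lower) and Eno1b from 9.63 to 8.04 (3.13-fold lower), while Eno2, the neuron-type enolase, was 2.28-fold higher and Eno3 1.28-fold higher, and Hk1 did not pass (1.09-fold).

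The hexosamine pathway, which makes the sugar donor for O-GlcNAc and is the subject of the study, went against this direction, with 7 of 10 genes higher and 2 lower (median 0.34), or 5 higher with median scaling. Ogt, the transferase that adds O-GlcNAc to proteins, ran from 9.56 to 9.84 (median 9.72) at 0 h and from 10.45 to 10.72 (median 10.61) at 48 h, 1.85-fold higher, and its 3 other kept probes were also higher. Nagk, which salvages N-acetylglucosamine, was 1.81-fold higher (medians 11.88 and 12.73) and again its 3 other kept probes agreed. Gne, an enzyme of sialic acid synthesis, was 1.29-fold lower by its brightest probe and higher by the other (log2 difference 0.25), Uap1, which makes UDP-GlcNAc, was 1.16-fold lower with overlapping arrays (adjusted p = 0.000906, limma), and Gnpda2 did not pass (1.06-fold).

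Iron, antioxidant and cell death genes held single changes in both directions. Among 12 iron genes 5 were higher and 3 lower (median 0.03). Ncoa4, the receptor that delivers ferritin to the lysosome, was 5.19-fold higher (9.30 to 9.68 at 0 h and 11.64 to 12.11 at 48 h) and the iron transporter Slc11a2 2.23-fold, while Hmox1, heme oxygenase, was 1.61-fold and the mitochondrial importer Slc25a37 1.28-fold lower, with the ferritin gene Fth1 at 14.74 and 14.78. Among 20 antioxidant genes 6 were higher and 9 lower (median -0.11). That is 30% and 45%, near the 33.1% and 39.2% of all genes tested. Nfe2l2, which encodes the regulator NRF2, was 3.71-fold higher (medians 8.80 and 10.66) and Mgst1 1.54-fold, while Gclm, of glutathione synthesis, was 2.96-fold lower, Me1, the malic enzyme that supplies NADPH, was 1.77-fold lower, and Prdx1 did not pass (14.48 and 14.56). The BCL2 family had 6 higher and 6 lower of 15 (median 0.16), or 40% each, again near the shares of all genes tested. The death-promoting genes Bcl2l11 (2.12-fold) and Pmaip1 (2.10-fold) were higher. Lower were Bid (2.11-fold by its brightest probe, with the second not past the threshold) and the survival gene Bcl2l1 (2.04-fold by its brightest probe). The other kept probes of Bcl2l1 had log2 differences of -0.34 and -0.11, the latter not past the threshold. Bcl2a1d did not pass (1.12-fold). Genes of actin, podosomes and integrins were 20 higher and 10 lower of 42 (median 0.09), but 12 higher and 11 lower with median scaling. After Src came Gsn, the actin-severing protein gelsolin (2.38-fold higher), while the integrin chain Itgb7 was 3.28-fold lower (medians 10.99 and 9.25), the actin-depolymerizing gene Cfl1 was 2.00-fold lower, and Arpc2 did not pass (1.02-fold). The proteasome had 22 of 26 subunits lower and 2 higher (median -0.34). Chaperones and stress genes of the endoplasmic reticulum had 12 of 21 lower and 2 higher (median -0.28). The hypoxia response had 5 higher and 6 lower of 13 (38.5% and 46.2%, median -0.01). Eicosanoid synthesis had 4 higher and 5 lower of 10 (40% and 50%, median -0.15). Over all genes tested the shares were 33.1% and 39.2%.

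The 42 function lists together held 893 measured genes. Of the 422 genes that were 2-fold or more higher at 48 h 91 were on a list, and of the 405 that were 2-fold or more lower 120 were.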

How the data were processed

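RNA of 24 samples was measured on Illumina mouse whole-genome bead arrays, 6 at each of 4 times. The deposited table holds 1 signal intensity, headed by the sample title, and 1 detection p-value per probe and array. The authors extracted these values with GenomeStudio and did not normalize them between arrays. The authors' processed values, deposited per sample, are on a log2 scale and served as an alternative. The study's methods describe log transformation and quantile normalization, whereas these values were linear in log2 intensity within each array (slopes of 0.993 to 0.994) and their medians differed between arrays (1.90 to 1.99).

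Intensities of all 24 arrays were log2-transformed and quantile-normalized. Of 45281 probes 18346 had a detection p under 0.05 on at least 3 arrays of a time, and 15558 of these carried 1 gene symbol (platform annotation). Each of the 9917 genes was represented by its brightest kept probe. Over all probes 34885 had 1 symbol, 18 several and 10378 none. The contrast of 48 h with 0 h was fitted with limma 3.58.1 in R 4.3.3 (time as the only factor, all 24 arrays, trended eBayes, 20 residual degrees of freedom) with Benjamini-Hochberg adjustment over all genes, and the fit was tested on simulated data. The number of arrays limits the precision. The median SD of a gene was 0.098 at 0 h and 0.0925 at 48 h. A gene detected on no array of a time has only a bound there, computed against the lowest detected signal of each array or the gene's own signal where higher, and its fold is given as "at least".

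The genes named were the 12 largest rises and 12 largest falls without overlap, the 2 largest rises and falls and the brightest unpassed member of each list, a panel of osteoclast and macrophage genes, and the cell type markers. Members and lists were chosen with earlier results of these data known. Alternatives were other scalings, background correction, probe filters and probe choice, the methods' t-test, array weights, a replicate block and leaving out each array. Promoter windows were taken from RefSeq (GRCm38.p6), 250 bases before to 50 after a start.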

Additional observations from a re-analysis of the deposited data

Results flagged for a closer look

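Among the 191 genes named, 25 of 382 groups of 6 arrays held 1 array far from the others, where chance flags about 1 in 20 groups. Of these, 10 were replicate 4 at 48 h. All values are log2 signals. At 0 h, replicate 2 lay below the other 5 for Ctsa (9.93 against 10.06 to 10.13) and Mgst1 (11.86 against 11.97 to 12.01). At 0 h, replicate 3 lay above the other 5 for Rufy4 (7.13 against 7.02 to 7.06) and below the other 5 for H2-M2 (6.48 against 6.57 to 6.62). At 0 h, replicate 4 lay above the other 5 for Cd81 (13.15 against 12.83 to 12.95) and below the other 5 for Relb (8.32 against 8.41 to 8.46), Pmaip1 (7.06 against 7.19 to 7.27) and Bcl2a1d (10.47 against 10.90 to 11.14). At 0 h, replicate 5 lay above the other 5 for Tnf (9.68 against 9.48 to 9.55) and Kif3c (9.59 against 9.43 to 9.49). At 0 h, replicate 6 lay above the other 5 for Slc38a1 (8.35 against 7.98 to 8.05) and Gsn (8.62 against 7.79 to 8.05) and below the other 5 for Tirap (9.86 against 9.91 to 9.94). At 48 h, replicate 1 lay above the other 5 for Ndufs8 (12.26 against 12.05 to 12.12). At 48 h, replicate 3 lay below the other 5 for Ctsk (14.38 against 14.53 to 14.61). At 48 h, replicate 4 lay above the other 5 for Dmpk (7.04 against 6.63 to 6.76), Tlr8 (10.33 against 9.96 to 10.05), Fnip1 (12.32 against 11.89 to 12.04), Cfl1 (9.55 against 9.15 to 9.28), Bcl6 (10.86 against 10.52 to 10.63), Sult1a1 (9.50 against 9.19 to 9.25) and Nanos1 (6.91 against 6.65 to 6.73) and below the other 5 for Fxyd2 (10.07 against 10.32 to 10.45), Irf8 (10.41 against 10.60 to 10.71) and Ccl5 (9.78 against 9.99 to 10.11).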

How the results depend on the processing

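The counts of genes higher and lower at 48 h stayed within 1.5 times their values under all alternatives run except those named here. The methods' t-test with Bonferroni adjustment gave 1317 higher and 1550 lower, and a limma test against a 1.5-fold difference 752 and 797; both ask for more than the test reported. With normexp background correction 656 genes were 2-fold or more higher and 701 lower, and the cause was not tested. Median scaling gave 2790 higher and 3996 lower, and 75th percentile scaling 2729 and 4322, with the median of all genes at -0.05 and -0.08.

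Leaving out 1 array at a time gave 3217 to 3279 genes higher, 3817 to 3864 lower, 412 to 427 higher by 2-fold or more and 398 to 411 lower by 2-fold or more. With the replicate number as a block 3405 genes were higher and 4026 lower, with 422 and 405 at 2-fold or more. The labels do not say that a number is shared by a culture or animal, so the block was not taken as a pairing. The correlation of same-numbered arrays' deviations ran from -0.21 to 0.24. Differently numbered arrays were not compared in this way, so the range cannot decide whether the numbers pair. Slc38a1 and Bcl2a1d passed with the block (adjusted p = 0.0462 and 0.0101, limma), and no other named gene changed its call.

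Of the named genes, Dmpk (0.0234) and Gne (0.25) turned sign with the second probe, and Mapre1 with median (-0.0312) and 75th percentile scaling (-0.0553). Of the genes given as not past the threshold, 11 passed with median scaling, 13 with 75th percentile scaling and 9 with the authors' processed values, all of them as lower. Atp6v0e, Myd88, Casp1, Ccl3, Irgm1, Npm1, Mrps21, Cox4i1 and Hprt did so with each of the 3 (lowest adjusted p 1.68e-06, highest 0.0319, limma), Cfp and Arpc2 with median and 75th percentile scaling, and Slc38a1 and Kif3c with the 75th percentile. By the second probe 12 such genes passed, 6 of them lower. Fuca1 lost its call with the authors' processed values (adjusted p = 0.102, limma), as did Mapre1 (0.877), and Dync1h1 with median and 75th percentile scaling (both 0.141). Cd14 lost its call without 0 h replicate 2, 4 or 6 or 48 h replicate 2, 3 or 4 (adjusted p 0.0597 to 0.182, limma), with the 12 arrays fitted alone (0.0712), without the trend (0.0524), without the filter on dim probes (0.0785) and by the methods' test with Benjamini-Hochberg adjustment (0.101), and Mapre1 without 48 h replicate 3 (0.0506). Without 48 h replicate 4, Zbtb7a, Casp1, Hprt, Prdx1 and Bcl2a1d passed (adjusted p 0.00989 to 0.0459, limma). With each array set no lower than its lowest detected signal, an alternative chosen after seeing the data, 404 genes were 2-fold or more higher and 387 lower. Signals near the top of the scale or near background limit what the arrays show for the genes there.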

Other observations

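Some genes were detected at 1 of the 2 times only. Of the genes tested 127 were detected on 0 of 6 arrays at 0 h and on all 6 at 48 h, and 105 the other way round, and 18 and 10 of these differed by a bound of 2-fold or more. The genes named here were chosen after their values were seen. H2-M2, a nonclassical MHC class I gene, ran from 9.32 to 9.50 (median 9.41) at 48 h and was at least 5.12-fold higher. Sult1a1, a sulfotransferase, ran from 9.19 to 9.50 (median 9.24) and was at least 4.65-fold higher, and the chemokine gene Ccl8 ran from 8.41 to 8.70 (median 8.62) and was at least 2.92-fold higher. At 72 h the means of these genes were 10.22, 7.97 and 7.96. In the other direction Dmwd, a WD repeat gene, ran from 9.41 to 9.84 (median 9.62) at 0 h and was at least 6.12-fold lower at 48 h, and Nanos1, an RNA-binding repressor of translation, ran from 8.67 to 8.82 (median 8.72) and was at least 3.25-fold lower.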
